A study of Homo sapiens with 20 samples.

Results

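The comparison described here asks which transcripts of nickel-exposed bronchial epithelial cells still differed from unexposed cells 2 weeks after the metal had been taken away. It rests on 4 of the 20 libraries of the series, chosen by their titles: both of Ni_6W+2W and both of Control_6W. BEAS-2B cells are human bronchial epithelial cells made immortal for culture. All groups were grown in Dulbecco's modified Eagle's medium. Ni_6W+2W cells, called washed cells below, were held in nickel chloride for 6 weeks, then washed and kept for 2 weeks without it. Control_6W cells were the unexposed cells of the 6-week experiment. Ni_6W cells (n = 2) had the 6 weeks of nickel with no wash-out and enter only as a second point of reference. The other groups, used only for levels, were Control_3D (n = 4) and Ni_3D (n = 2) after 3 days, Ni_3D+14D (n = 2) after 3 days and a further 14 days, and Ni_clone (n = 6), single colonies of exposed cells expanded without nickel. The concentration given to the washed libraries is not stated in the labels, which speak of various concentrations. The labels do not say whether replicates came from separate cultures, and the p-values then cover only how far these libraries differ, which may be technical. Washed cells also spent longer in culture than their label gives for the controls, and time, washing and past nickel cannot be told apart.

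Epithelial cells can lose their junctions and take on a migratory, matrix-producing state, the epithelial-mesenchymal transition. ZEB1 is among the transcription factors that drive it: it binds short DNA motifs called E-boxes at epithelial genes and represses them, while mesenchymal cells make fibronectin, collagens and the integrins that bind them. Immediate early genes, such as EGR1 and the FOS family, are a different class: growth factors and stress switch them on within minutes through kinase cascades, and phosphatases such as DUSP1 switch those cascades off again. Nickel is a carcinogen of the airway and can displace iron in enzymes that act on oxygen, histones and DNA.

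Total counts were 18610847 and 17454710 reads in Control_6W replicates 1 and 2, 33733301 and 23509793 in Ni_6W+2W, and 24181686 and 10581338 in Ni_6W. Simple epithelial keratins were present in these 6 libraries (KRT8 between 186 and 836 CPM, reads scaled to the normalised library total, and KRT18 between 134 and 388), whereas CDH1, which encodes E-cadherin, lay at or under 2.05 CPM and EPCAM at or under 3.47 CPM. Several libraries stood apart. Control_6W replicate 2 had 194 CPM of the zinc exporter SLC30A1, against 31.9 CPM or less in the other 19 libraries. It also held 140 CPM of SERPINB2, against 5.92 CPM or less elsewhere. Ni_6W+2W replicate 1 had low levels of basal keratins that were absent or nearly so elsewhere, such as KRT5 (4.04 CPM, next highest 0.737) and KRT14 (2.94 CPM, next highest 0.475). Control_3D replicate 1 and Ni_3D replicate 1 had the highest CDH1 (11.4 and 29.1 CPM) and EPCAM (5.97 and 9.59 CPM) of the 20 libraries. The part of these differences in the results was not tested. The levels of Control_6W were not those of every unexposed culture either. Control_3D replicates 1 and 2, which had no nickel, lay nearer (on log2 of CPM + 0.5) to the washed cells than to Control_6W at 44 and 43 of the 46 genes called below, while Control_3D replicates 3 and 4 lay nearer to the washed cells at only 4 and 4 of them. Differences from Control_6W are therefore reported as differences between these libraries, and the values of the Control_3D libraries are given beside many of the genes described.

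Washed cells differed from the 6-week controls in a small set of transcripts, most of them higher in the washed cells when all 6 libraries were fitted. Of 14168 genes tested, 46 passed an adjusted p of 0.05 (0.325% of those tested), by the quasi-likelihood test of edgeR, adjusted over all genes by the Benjamini-Hochberg method. A total of 39 rose (0.275%) and 7 fell (0.0494%). At an unadjusted p under 0.05 there were 1279 genes (9.03%), 762 rises (5.38%) and 517 falls (3.65%), and the median log2 fold change of all genes tested was 0.01. The changes were large: the rises had a median fitted log2 fold change of 5.26, or 5.16 with genes lacking control reads set at their lower bound, and the falls one of -4.32. Many of the rises were of transcripts near or at 0 in the controls. Of the 39, 7 had no read in either Control_6W library, 9 had 1 to 3 reads in the pair, and 23 had more. The 46 genes lay on 16 chromosomes. In all 46 the libraries of the groups did not overlap, as in 44.6% of all genes tested. In bulk RNA, fewer cells with a transcript and less of it per cell cannot be told apart.

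The number of calls depended on which libraries were fitted. A fit of all 14 libraries that are not clones, which takes the 4 Control_3D libraries as 1 group, called 0 genes by edgeR (1956 at an unadjusted p under 0.05), and DESeq2 on the 6 libraries called 277, of which 44 were among the 46. Without Control_6W replicate 2 the count fell to 4, the genes MARK1, PDPN, SNRPN and SNURF, and without Ni_6W+2W replicate 2 it was 24, without Ni_6W replicate 1 it was 28 and without Ni_6W replicate 2 it was 27. It was 34 without Ni_6W+2W replicate 1 and 54 without Control_6W replicate 1. Without that last library the balance turned as well: 18 of the 54 calls were rises and 36 were falls, and 21 of the 54 were among the 46. No called gene changed sign in any of the 16 alternatives. These reuse the same libraries, which did not overlap in any called gene, so a change of sign was hardly possible. Each fit without 1 library leaves 1 library in its group and fewer residual degrees of freedom. Calls can then be lost to lower power as well as to the values of that library. The 3 genes that passed in each of the 6 fits that leave out 1 library were MARK1, SNRPN and SNURF.

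**Figure D1:**
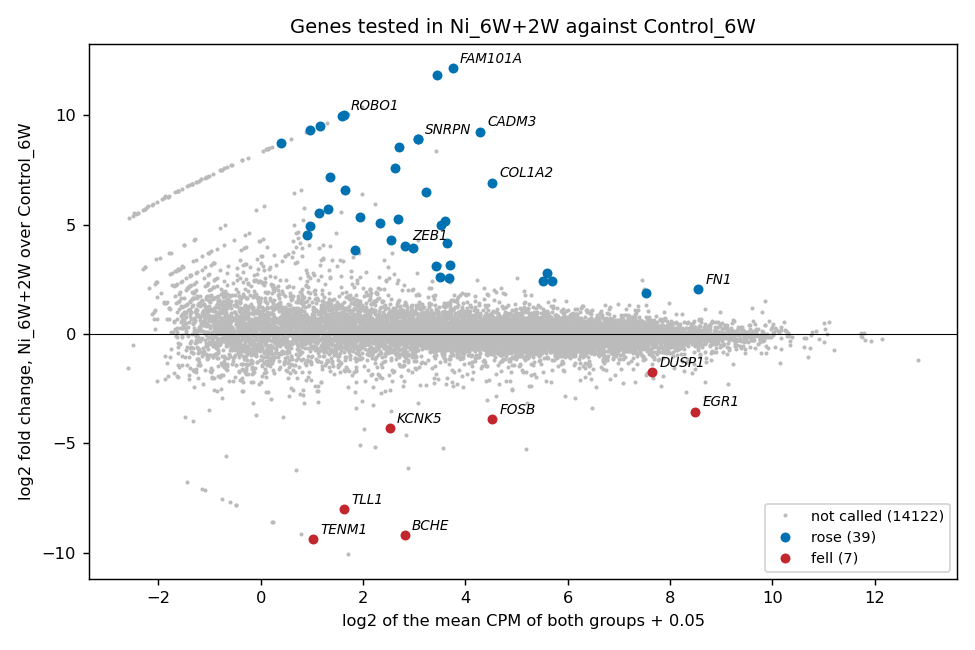
Each point is 1 of the 14168 genes tested, with the log2 mean CPM of Control_6W and Ni_6W+2W (plus 0.05) on the horizontal axis and the fitted log2 fold change of Ni_6W+2W over Control_6W on the vertical axis. The 39 called rises (blue) lie between ROBO1, FAM101A and other genes absent from the controls and the abundant FN1, and the 7 falls (red) include EGR1, FOSB and DUSP1.

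ZEB1, the E-box-binding repressor of epithelial genes, rose in the washed cells. It stood at 0.986 and 0.608 CPM in Control_6W and at 9.98 and 16.5 CPM in Ni_6W+2W. The Ni_6W libraries had 15.9 and 18.1 CPM, so that each exposed library lay far above each 6-week control. The fitted log2 fold change was 4.04 (SE 0.50), or 16.4-fold, with an edgeR adjusted p of 0.0197. Among unexposed 3-day cells ZEB1 stood at 11.9 and 12.4 CPM in Control_3D replicates 1 and 2 and at 1.05 and 1.76 CPM in replicates 3 and 4. The first pair lay within the range of the washed libraries and the second close to Control_6W. The 6 clones ranged from 7.75 to 14.6 CPM with a median of 9.30. The edgeR adjusted p of ZEB1 was 0.144 without Control_6W replicate 2, 0.0581 without Ni_6W+2W replicate 2 and 0.256 in the fit of 14 libraries. ZEB1 lies on chromosome 10 (hg19, 31610064 to 31818742, plus strand).

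The other transcription factors of the transition did not pass the test. Of the 10 measured in the list, ZEB1 alone was called, and the median log2 fold change of the 10 was 0.59, against 0.01 for all genes. The fold change was positive in 8 of the 10, with a maximum of 6.04, above that of ZEB1. At an unadjusted p under 0.05, 4 of the 10 were higher and 0 lower, against 5.38% and 3.65% of all genes. With no filter on low counts edgeR called 2 of 12. TWIST1, a basic helix-loop-helix factor, stood at 13.0 and 8.02 CPM in Control_6W and at 29.5 and 26.7 CPM in Ni_6W+2W, with no overlap but an edgeR adjusted p of 0.372. SNAI1 (log2 fold change -0.58, SE 0.61), SNAI2 (0.87, SE 0.71) and ZEB2 (0.13, SE 0.39) had standard errors near or above their fold changes or overlapping libraries. Per length, ZEB2 was the more abundant of the ZEB genes in both groups: its mean was 9.47 RPKM (reads per kilobase, scaled to library size) in Control_6W and 10.6 in Ni_6W+2W, where ZEB1 went from 0.124 to 2.01 RPKM. The usual end points of the transition gave no call either. Vimentin (VIM), the intermediate filament of mesenchymal cells, was abundant in all 4 libraries, with 2292 and 1576 CPM in Control_6W and 2981 and 1528 CPM in Ni_6W+2W. N-cadherin (CDH2) had 231 and 235 against 239 and 199 CPM. E-cadherin (CDH1) had 0.438 and 1.95 CPM in Control_6W and 0.428 and 0.753 CPM in Ni_6W+2W, and EPCAM 2.03 and 3.47 against 1.62 and 1.82 CPM. Their edgeR adjusted p values ran up to 0.980 for CDH2.

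The 40 measured genes of epithelial junctions and identity held no call in the main edgeR fit and 5 by DESeq2. At an unadjusted p under 0.05, 4 were higher and 4 lower, and the median log2 fold change was 0.10. With no filter on low counts edgeR called 8 of 51. ESRP2, a splicing regulator of epithelial cells, was at 0.712 and 0.426 CPM in Control_6W and at 3.58 and 6.30 CPM in Ni_6W+2W. Periplakin (PPL), which links desmosomes to keratin, stood at 1.81 and 2.74 against 9.30 and 31.1 CPM. Claudin-1 (CLDN1), of tight junctions, stood at 244 and 821 against 142 and 169 CPM. None of these 3 passed the adjusted test of edgeR in the main fit.

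The start region of ZEB1 itself is shown because ZEB1 and related factors bind E-boxes of the letters CAGGTG, or CACCTG on the other strand, and because the gene moved with no called partner in its family. The sequence is the RefSeq window of 250 bases before 1 of 7 annotated ZEB1 starts, picked because it holds the most E-boxes of the 7 (GRCh38.p14, chr10:31318966-31319215, plus strand, a different build from the hg19 coordinates of the counts), with E-boxes in capitals.
ZEB1 promoter: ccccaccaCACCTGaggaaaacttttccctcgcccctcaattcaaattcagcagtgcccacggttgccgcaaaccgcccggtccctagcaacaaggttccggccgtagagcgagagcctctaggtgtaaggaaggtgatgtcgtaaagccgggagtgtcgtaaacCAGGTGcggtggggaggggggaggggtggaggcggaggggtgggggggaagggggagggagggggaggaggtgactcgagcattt
It holds 2 E-boxes, and 2 of the 7 ZEB1 windows hold at least 1. The letters occur in 17.5% of all 35116 windows that RefSeq gives here, and in 0 of the 8 windows of the 7 called falls. A match of 6 letters is a description and not a measured binding site.

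Genes of the extracellular matrix and its receptors rose alongside ZEB1, though in number they were a minority of their lists. Of 26 collagen chains measured, 3 rose and none fell by edgeR, with a median log2 fold change of 0.51 against 0.01 for all genes. DESeq2 called 4 of the 26, and 6 were higher and 0 lower at an unadjusted p under 0.05. COL1A2, the second chain of type I collagen, stood at 0.548 and 0.182 CPM in Control_6W and at 64.6 and 26.9 CPM in Ni_6W+2W (log2 fold change 6.92, SE 0.88, edgeR adjusted p 0.0200). Its partner chain COL1A1 was abundant in both groups, with means of 3381 and 3463 CPM. COL5A1, a chain of fibril-nucleating type V collagen, had 79.4 and 79.3 CPM in Control_6W and 289 and 297 CPM in Ni_6W+2W, a 3.70-fold rise (edgeR adjusted p 0.0348). COL8A1, of network-forming type VIII collagen, had 2.41 and 2.86 against 22.4 and 24.1 CPM, an 8.81-fold rise. In these 3 genes replicates were close to each other relative to the distance between groups, except in COL1A2, whose washed libraries differed by more than 2-fold. Unexposed Control_3D libraries split in all 3: replicates 1 to 4 had 12.7, 8.88, 2.25 and 1.17 CPM of COL1A2, 593, 390, 110 and 74.2 CPM of COL5A1, and 42.0, 42.4, 4.03 and 2.81 CPM of COL8A1. COL5A2, the partner of COL5A1, stood at 1.15 and 1.22 against 7.19 and 12.6 CPM, with an edgeR adjusted p of 0.066.

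Fibronectin (FN1), a matrix glycoprotein bound by integrins, was at 118 and 173 CPM in Control_6W, at 589 and 618 CPM in Ni_6W+2W, and at 567 and 855 CPM in Ni_6W. The rise was 4.16-fold (log2 2.06, SE 0.33, edgeR adjusted p 0.0465). This call was close to the threshold: it was lost with RLE size factors (0.0511) and in each of the 6 fits that leave out a library (0.0537 to 0.212), at the lowest without Ni_6W replicate 2 and at the highest without Control_6W replicate 1. Unexposed Control_3D replicates 1 and 2 had 3185 and 3114 CPM of FN1, above the washed cells, and replicates 3 and 4 had 161 and 102 CPM. LAMA4, a laminin chain of basement membranes, had no read in Control_6W and 1.96 and 5.67 CPM in Ni_6W+2W, at least 41.4-fold higher. FN1 and LAMA4 were the 2 edgeR calls among 40 measured matrix glycoproteins and proteoglycans (median log2 fold change 0.19). DESeq2 called 5 of the 40, and 10 were higher and 4 lower at an unadjusted p under 0.05. ITGA4, the integrin subunit that pairs with beta chains to bind fibronectin, was the 1 called gene of 17 integrins: 0.767 and 1.88 CPM in Control_6W against 33.6 and 13.2 CPM in Ni_6W+2W (log2 fold change 4.15, SE 0.62). Control_3D replicates 1 to 4 had 15.9, 20.02, 0.310 and 0.351 CPM of ITGA4. Beyond the lists, podocan (PODN), a small leucine-rich matrix proteoglycan, rose from 3.94 and 3.53 to 17.3 and 26.6 CPM. SPON2, a secreted matrix protein of the F-spondin family, had 2 reads in the control pair and 7.87 and 4.36 CPM in the washed cells. FAM20C, the kinase that phosphorylates secreted proteins, rose from 7.01 and 17.1 to 99.6 and 69.3 CPM.

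Of these matrix genes, COL1A2 was lost without Control_6W replicate 2 alone among the fits that leave out a library (edgeR adjusted p 0.135). COL5A1 reached up to 0.297, COL8A1 up to 0.135 and ITGA4 up to 0.126 on leaving out the same library, and PODN (0.340), SPON2 (0.171) and LAMA4 (0.189) were likewise highest there. Over the 6 fits that leave out 1 library, COL1A2 passed in 5, COL8A1 in 3, COL5A1 and SPON2 in 2, ITGA4 and LAMA4 in 1, and PODN and FAM20C in 0. Fibroblast markers were not tested as a list. Of 13 in the files 7 were tested and COL1A2 was the 1 called. Log2 fold changes of the 7 ran from -3.68 to 6.92 (median 0.03), 4 positive and 3 negative. Summed over the list they came to 3422 and 4650 CPM at the lowest and highest in Control_6W and 3238 and 5348 CPM in Ni_6W+2W. DCN and MEOX2 had no read in the 4 libraries, and PDGFRA, LUM and COL3A1 had means under 1 CPM in both groups. Podoplanin (PDPN), a membrane glycoprotein of alveolar type I and lymphatic cells that is also found on migrating tumour cells, rose from 0.219 and 1.22 CPM to 15.6 and 29.1 CPM (log2 fold change 4.97, SE 0.70, edgeR adjusted p 0.0321). It passed in 3 of the 6 fits that leave out 1 library, and not without either Ni_6W library (0.0779 and 0.0762) or without Ni_6W+2W replicate 2 (0.0581). Control_3D replicates 1 to 4 had 14.5, 12.3, 0.310 and 0.468 CPM of PDPN. It was the 1 call of 7 tested alveolar markers, and the surfactant genes SFTPA1, SFTPA2 and SFTPC had no read.

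**Figure D2:**
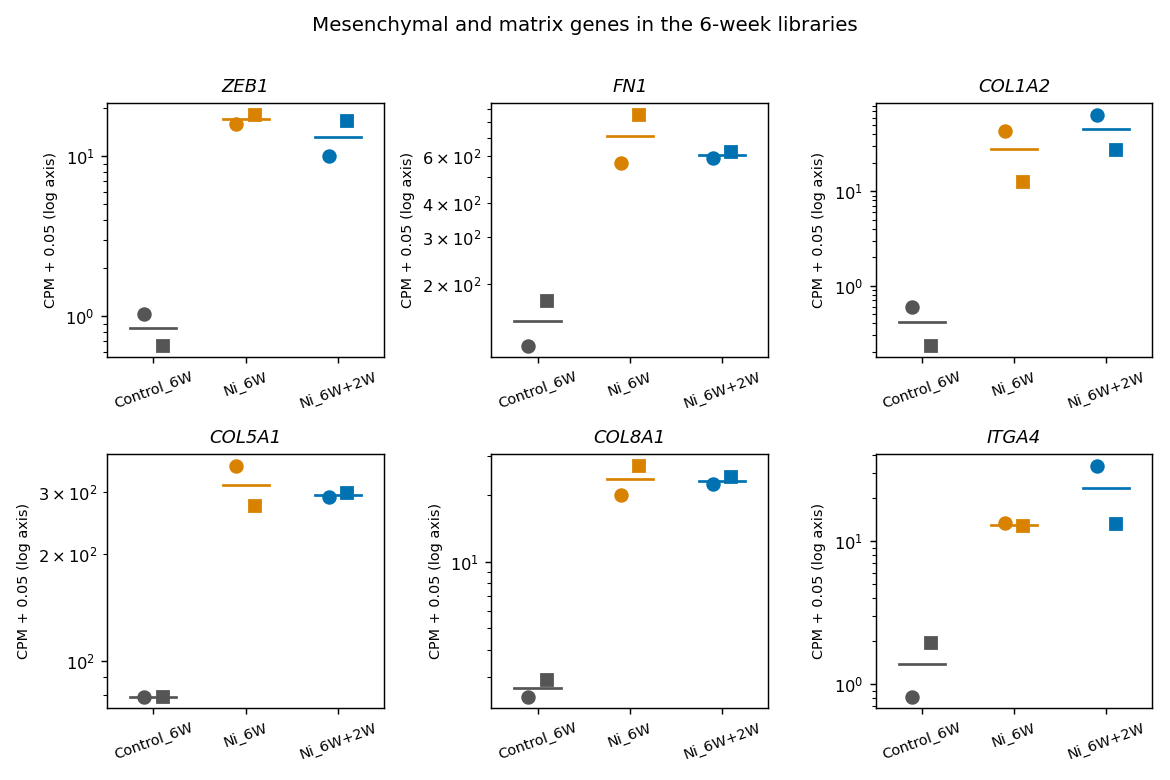
Level of 6 mesenchymal and matrix genes in CPM (log axis, 0.05 added) in each library of Control_6W, Ni_6W and Ni_6W+2W, with circles for replicate 1, squares for replicate 2 and a line at the mean. In each panel the washed libraries lie above both 6-week controls, as with ZEB1 at 9.98 and 16.5 CPM against 0.986 and 0.608 CPM.

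Transcripts that were all but silent in the 6-week controls made up much of the called set. ROBO1, the receptor of SLIT guidance cues, had no read in Control_6W and 6.21 and 5.94 CPM in the washed cells, at least 70.5-fold higher against a floor of 3 reads over the control pair. It was the 1 edgeR call among 51 measured axon guidance genes, whose median log2 fold change was 0.32. DESeq2 called 5 of the 51, and 9 were higher and 4 lower at an unadjusted p under 0.05. Of 6 measured neuronal and neuroendocrine markers edgeR called 0 and DESeq2 1 (1 higher at an unadjusted p under 0.05, median 0.07). Of 13 cadherins and protocadherins edgeR called 0 and DESeq2 2 (4 higher and 3 lower, median -0.08). With no filter on low counts edgeR called 1 of 9 and 7 of 21 in these lists. CADM3, a nectin-like adhesion molecule, had 2 control reads and stood at 14.7 and 63.1 CPM in the washed cells, a 621-fold ratio with a 95% counting interval of 172 to 5130. OSBPL6, an oxysterol-binding family member, had no control read and 5.11 and 6.81 CPM in the washed cells, at least 67.7-fold higher. PTPRN, a protein of dense-core secretory vesicles, was at least 52.3-fold higher, and SNTB1, a syntrophin of the dystrophin complex, at least 28.4-fold higher. Over the 6 fits that leave out 1 library, ROBO1 and OSBPL6 passed in 5 (all but that without Control_6W replicate 2, edgeR adjusted p 0.112 and 0.0807), CADM3 in 3, PTPRN in 1 and SNTB1 in 0. Unexposed Control_3D replicates 1 and 2 also carried these transcripts: ROBO1 stood at 12.3 and 12.1 CPM there and at 0.0774 and 0 CPM in replicates 3 and 4, and OSBPL6 at 6.89 and 6.97 against 0 and 0 CPM.

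The genes with the smallest adjusted p were SNRPN and SNURF, which share 1 transcription unit at the imprinted locus of chromosome 15 (hg19, 25200135 to 25223729, plus strand) and so share reads. SNRPN encodes a splicing protein and is normally transcribed from the paternal copy alone, where the start is unmethylated. SNRPN had 1 read in the control pair, 13.6 and 19.8 CPM in Ni_6W+2W and 30.4 and 21.6 CPM in Ni_6W (edgeR adjusted p 0.00708). Both washed and both nickel libraries lay far above the controls. The ratio of washed to control was 565 with a counting interval of 101 to 22345. The clones ranged from 8.79 to 30.5 CPM, and the unexposed Control_3D libraries gave 13.5, 14.4, 0.0387 and 0.351 CPM. UBE3A, farther along the same imprinted region, stood at 66.3 and 92.5 CPM in Control_6W and at 70.3 and 74.3 CPM in the washed cells, with overlapping libraries. It was chosen for mention after its values were seen.

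MARK1, a microtubule affinity-regulating kinase, was also near 0 in the controls, with 1 read in the control pair and 14.3 and 11.5 CPM in the washed cells (ratio 454, counting interval 81.3 to 17966, edgeR adjusted p 0.0102). Unexposed Control_3D replicates 1 to 4 had 15.7, 17.6, 0.0387 and 0 CPM of it. RPS6KA2, a ribosomal S6 kinase downstream of ERK, had 2 control reads and 9.12 and 15.3 CPM in Ni_6W+2W. GAS1, a membrane protein of growth arrest and hedgehog signalling, rose from 0.110 and 0.304 to 8.48 and 28.8 CPM. FOXE1, a forkhead factor known from thyroid development, rose from 0.110 and 0.182 to 2.60 and 4.40 CPM. In all 4 of these genes the controls were at or under 0.304 CPM. Transporters and signalling proteins were also in the set. The potassium-chloride cotransporter SLC12A7 rose from 0.219 and 0.426 to 10.1 and 14.7 CPM, and the amino acid transporter SLC38A5 from 0.164 and 0.182 to 6.89 and 7.84 CPM. Adenylyl cyclase 1 (ADCY1) rose from 1.31 and 0.608 to 16.4 and 13.0 CPM. Connexin 43 (GJA1), the main gap junction protein of many tissues, rose from 3.45 and 2.86 to 17.5 and 21.4 CPM. The orphan receptor GPR176 rose from 16.2 and 16.0 to 80.8 and 93.2 CPM. In the last 2 genes replicates differed far less than the groups. Without Control_6W replicate 2 each gene of this paragraph but MARK1 lost its call, with edgeR adjusted p from 0.0753 for SLC12A7 and RPS6KA2 to 0.323 for GJA1. Over the 6 fits that leave out 1 library, RPS6KA2, SLC12A7 and SLC38A5 passed in 5, ADCY1 in 4, GPR176 in 3, GAS1 in 2, GJA1 in 1 and FOXE1 in 0.

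The remaining rises were of mixed kinds. DNAJA4, a heat shock cochaperone, rose from 0.821 and 0.486 to 32.3 and 15.1 CPM, and TENM2, a teneurin adhesion protein, from 0.602 and 0.486 to 12.5 and 9.47 CPM. KIAA1244 rose from 1.75 and 2.74 to 17.6 and 21.0 CPM, and LYPD1, KRBOX1, FAM109B, THNSL2 and ZNF804A rose to between 3.12 and 14.7 CPM from at most 0.602 CPM. Without Control_6W replicate 2 these 8 genes lost their calls, with edgeR adjusted p from 0.112 for DNAJA4 to 0.311 for THNSL2. FAM101A and TMX2-CTNND1 had the greatest fitted fold changes and the least even pattern. FAM101A stood at 0 in both Control_6W and both Ni_6W libraries and at 44.8 and 8.99 CPM in the washed cells. It was also at 0 in 5 of the 6 clones and overlaps the read-through gene ZNF664-FAM101A on the same strand. TMX2-CTNND1, a read-through transcript spanning TMX2 and CTNND1, was likewise at 0 in the 4 reference libraries and at 12.9 and 30.8 CPM after wash-out. It also varied within groups elsewhere: unexposed Control_3D replicates 1 to 4 had 24.8, 18.0, 36.8 and 0 CPM, Ni_3D 0 and 31.7 CPM, and Ni_3D+14D 0 and 27.7 CPM. TMX2 itself had 93.8 and 88.6 against 95.7 and 68.8 CPM and CTNND1 241 and 245 against 292 and 221 CPM. How reads shared by overlapping genes were assigned is not given in the sources used here, and levels of both genes are uncertain. Among the rises described, ROBO1, CADM3, ITGA4, COL5A1, COL8A1, TENM2, KIAA1244 and LYPD1 overlap a gene on the opposite strand, whose reads cannot be told apart from theirs unless counting used the strand, which is not given either. DESeq2 called neither (adjusted p 0.308 for FAM101A and 0.330 for TMX2-CTNND1), and edgeR did not call FAM101A without Control_6W replicate 2 (0.144) nor TMX2-CTNND1 (0.0763).

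The 7 falls included genes for secreted and membrane proteins that the controls carried at low levels. BCHE, which encodes butyrylcholinesterase, stood at 3.78 and 24.1 CPM in Control_6W and at 0 and 0.0396 CPM (1 read) in Ni_6W+2W, a washed-to-control ratio of 0.00129 with a counting interval of 3.25e-05 to 0.0072. TLL1, a tolloid-like protease that trims procollagens, stood at 4.05 and 8.15 against 0 and 0.0396 CPM. TENM1, a teneurin adhesion protein on the X chromosome, had no read in the washed cells and 3.23 and 4.68 CPM in the controls, at least 75.6-fold lower. KCNK5, a background potassium channel, fell from 6.52 and 15.3 to 0.490 and 0.594 CPM. In Control_3D, BCHE was at 0, 0, 3.91 and 5.50 CPM, TLL1 at 0.223, 0.785, 4.34 and 3.04 CPM and KCNK5 at 1.98, 1.28, 5.81 and 5.97 CPM in replicates 1 to 4, lower in the first pair for each of the 3 genes. TENM1 was low in all 4, at 0.0223, 0, 0.736 and 0.234 CPM, nearer to the washed cells in each. All 4 calls were lost without Control_6W replicate 2, the library in which each gene was higher, at edgeR adjusted p of 0.189 for BCHE, 0.165 for TLL1, 0.189 for TENM1 and 0.246 for KCNK5. Over the 6 fits that leave out 1 library TLL1 passed in 3, TENM1 in 2, and BCHE and KCNK5 in 1.

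The other 3 falls were immediate early genes. In Control_6W these were more abundant than the falls above, EGR1 and DUSP1 by far and FOSB by less. EGR1, a zinc finger factor induced by growth signals, stood at 371 and 963 CPM in Control_6W, at 50.6 and 62.6 CPM in Ni_6W+2W and at 55.2 and 32.7 CPM in Ni_6W. The fitted log2 fold change of washed over control was -3.56 (SE 0.49, edgeR adjusted p 0.0319). FOSB, a subunit of the AP-1 factor, stood at 36.8 and 49.5 against 3.46 and 2.26 CPM (log2 fold change -3.91, SE 0.57, edgeR adjusted p 0.0372). DUSP1, the phosphatase that shuts off MAP kinases, stood at 312 and 308 against 99.9 and 85.3 CPM (log2 fold change -1.74, SE 0.26, edgeR adjusted p 0.0372) and was the 1 edgeR call among 48 measured genes of receptor tyrosine kinase signalling. DESeq2 called 11 of these 48, and 13 were lower and 4 higher at an unadjusted p under 0.05. In each of the 3 genes both washed libraries lay well under both controls. So did all 4 unexposed Control_3D libraries for FOSB (2.99, 2.21, 5.03 and 2.22 CPM in replicates 1 to 4) and DUSP1 (95.2, 149, 133 and 67.2 CPM), which were nearer to the washed cells. EGR1 stood at 50.5, 309, 193 and 30.0 CPM there, also under both 6-week controls, with replicates 1 and 4 nearer to the washed cells.

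A list of immediate early genes was drawn up after these values had been seen, so its counts are not independent of them. Of 30 measured, the same 3 fell, none rose, 16 were lower at an unadjusted p under 0.05 (3.65% of all genes were), and the median log2 fold change was -1.41. EGR3 had no read in the washed cells and 2.03 and 10.8 CPM in the controls (edgeR adjusted p 0.075). IER2 stood at 360 and 373 against 88.0 and 108 CPM, and FOS at 79.7 and 23.0 against 8.39 and 9.23 CPM. The level summed over the 30 genes was 5510 and 10647 CPM in Control_6W and 3639 and 2762 CPM in Ni_6W+2W. Elsewhere in the series the sum varied widely within groups. Unexposed Control_3D libraries gave 3257, 5071, 4986 and 2960 CPM, and the clones, which grew without nickel, ran from 3965 to 13251 CPM. EGR1 ranged from 196 to 1807 CPM in the clones, where 0 of 6 lay nearer to the washed cells. The edgeR calls of EGR1, FOSB and DUSP1 were all lost without Control_6W replicate 2 and without either Ni_6W+2W library. DUSP1 was also lost without Control_6W replicate 1, and EGR1 without either Ni_6W library, a group outside this comparison. Such fits have fewer libraries, so a lost call can reflect lower power as well as the library left out. Across the 16 alternatives the log2 fold change ran from -4.09 to -2.72 for EGR1, -4.25 to -3.65 for FOSB and -1.86 to -1.64 for DUSP1. Over the 6 fits that leave out 1 library EGR1 passed in 1, FOSB in 3 and DUSP1 in 2. Labels give no time between the last change of medium and lysis.

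The start regions of these 3 genes are shown because they hold letters through which immediate early genes are known to be switched on. Capitals mark the CArG box of serum response factor (in EGR1) and the core of the cyclic AMP response element, TGACGT or its reverse complement ACGTCA. Both motifs were chosen after the falls were known and searched on both strands. Each line is 250 bases before the RefSeq start on GRCh38.p14: EGR1 at chr5:138465229-138465478 (plus strand), FOSB at chr19:45467746-45467995 (plus strand) and DUSP1 at chr5:172771196-172771445 (minus strand).
EGR1 promoter: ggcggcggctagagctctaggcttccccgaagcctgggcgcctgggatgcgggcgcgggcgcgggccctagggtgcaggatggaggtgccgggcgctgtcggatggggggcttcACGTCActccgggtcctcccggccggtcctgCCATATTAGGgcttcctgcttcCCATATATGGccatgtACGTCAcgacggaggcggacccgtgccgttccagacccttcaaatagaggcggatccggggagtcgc
FOSB promoter: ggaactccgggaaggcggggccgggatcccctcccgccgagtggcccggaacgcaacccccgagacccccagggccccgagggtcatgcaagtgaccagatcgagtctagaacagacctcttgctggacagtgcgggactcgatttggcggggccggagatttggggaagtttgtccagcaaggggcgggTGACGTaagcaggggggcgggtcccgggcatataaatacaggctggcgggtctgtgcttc
DUSP1 promoter: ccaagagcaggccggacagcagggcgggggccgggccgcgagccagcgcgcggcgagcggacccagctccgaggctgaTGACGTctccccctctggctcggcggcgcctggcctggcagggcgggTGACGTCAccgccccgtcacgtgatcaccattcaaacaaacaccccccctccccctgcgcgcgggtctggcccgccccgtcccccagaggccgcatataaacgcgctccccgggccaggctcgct
EGR1 holds 2 CArG boxes and 2 response element cores. FOSB holds 1 core, and DUSP1 holds 3 core matches of which 2 overlap in 1 palindrome. The core is in 7.10% and the CArG box in 1.16% of all 35116 windows, and the core is in 3 of the 8 windows of the 7 called falls (37.5%), those of these same 3 genes. Letters alone do not show that a factor was bound.

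**Figure D3:**
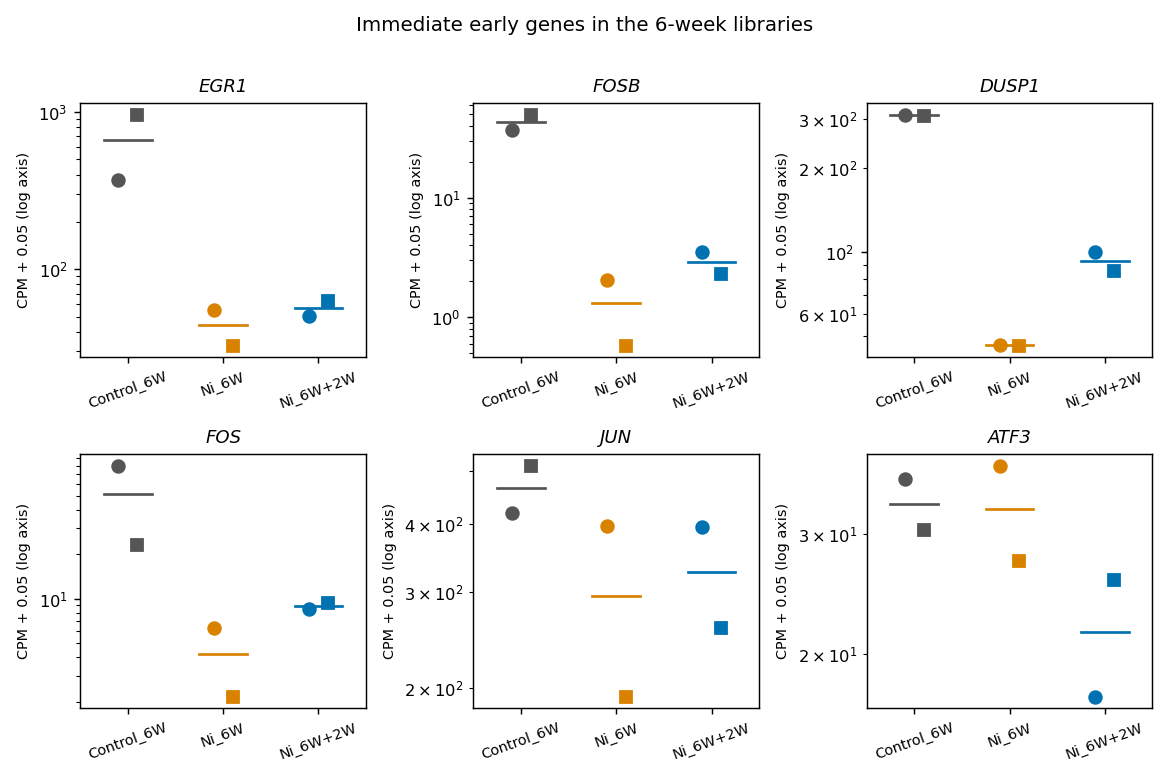
Level of 6 immediate early genes in CPM (log axis, 0.05 added) in each library of Control_6W, Ni_6W and Ni_6W+2W, with circles for replicate 1, squares for replicate 2 and a line at the mean. EGR1, FOSB and DUSP1 were called, with EGR1 at 371 and 963 CPM in the controls and 50.6 and 62.6 CPM in the washed cells, while FOS, JUN and ATF3 were not.

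Other programmes that nickel is known to touch gave no call between washed and control cells in the main edgeR fit. A few genes were called by DESeq2 or by edgeR with no filter on low counts. For the counts below, 5.38% of all genes tested were higher and 3.65% lower at an unadjusted p under 0.05. None of 56 hypoxia-inducible genes passed in the main edgeR fit or by DESeq2. Of the 56, 2 were higher and 1 lower at an unadjusted p under 0.05 (median log2 fold change 0.06). With no filter on low counts edgeR called 7 of the 56, against 537 of all 18967 genes in that fit. CA9, the carbonic anhydrase used as a marker of that response, stood at 0.602 and 13.2 CPM in Control_6W and at 10.5 and 25.6 CPM in the washed cells, whereas it reached 624 and 368 CPM in Ni_3D. Of 23 metallothionein and zinc transport genes edgeR called 0 and DESeq2 2, and 7 were lower and 1 higher at an unadjusted p under 0.05. With no filter on low counts edgeR called 6 of 31. MT1X, a metallothionein, was at 4.33 and 72.4 CPM in the controls and at 5.78 and 3.53 CPM in the washed cells, so that the difference lay in Control_6W replicate 2. The same library was the higher control for SLC30A1 and for MT2A (202 and 749 against 150 and 146 CPM). Of 39 NF-kB targets, cytokines and chemokines edgeR called 0 and DESeq2 3, and edgeR with no filter called 6 of 46. At an unadjusted p under 0.05, 9 of the 39 were lower and 1 higher (median log2 fold change -0.42). Of 27 p53 targets edgeR called 0 and DESeq2 1, and 5 were lower (median -0.56). With no filter edgeR called 2 of the 27. CDKN1A, the cell cycle inhibitor that p53 induces, stood at 213 and 316 against 135 and 136 CPM.

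In the other direction, 7 of 25 HOX genes and 3 of 14 histone genes were higher at an unadjusted p under 0.05 with 0 called by edgeR, and their median log2 fold changes were 0.65 and 1.18. DESeq2 called 0 of the HOX genes and 3 of the histone genes. With no filter on low counts edgeR called 0 of 37 HOX genes and 3 of 22 histone genes. HOXA5 stood at 0.712 and 0.304 CPM in the controls and at 1.87 and 2.65 CPM in the washed cells. HIST1H1C, a linker histone, stood at 9.75 and 10.2 against 39.4 and 37.1 CPM (edgeR adjusted p 0.058), and the unexposed Control_3D libraries gave 21.9, 17.7, 9.53 and 12.9 CPM. Of 58 cell cycle genes, 32 cholesterol genes and 47 repressive chromatin enzymes none was called in the main edgeR fit or by DESeq2. With no filter edgeR called 1 of 59, 1 of 32 and 1 of 47. At an unadjusted p under 0.05, 4 cell cycle genes were lower, 1 cholesterol gene was higher, and 2 chromatin enzymes were higher and 1 lower. The medians of these lists lay between -0.07 and 0.12. DESeq2 placed at least 1 call in 24 of the 39 lists and edgeR in 8.

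After 2 weeks without nickel most called genes had means between 50% and 200% of those in cells taken at the end of the exposure. No gene was called between Ni_6W+2W and Ni_6W by edgeR, with 336 at an unadjusted p under 0.05 (2.37%), while DESeq2 called 2, both lower after wash-out. They were INSIG1, an endoplasmic reticulum brake on cholesterol synthesis (442 and 218 CPM in Ni_6W, 52.9 and 102 CPM in Ni_6W+2W), and PPP1R32. Ni_6W and Ni_6W+2W share their controls, so their differences from Control_6W are not independent and are only set side by side. Of the 46 genes, 44 had the same sign in both, the exceptions being FAM101A and TMX2-CTNND1. The washed mean lay between 50% and 200% of the Ni_6W mean in 38 of 46. TENM1, BCHE and TLL1 were not among the 38, with means at or under 0.0440 CPM in both groups. Neither share was counted over all genes tested, so both counts only describe the called genes. ZEB1 stood at 77.9%, FN1 at 84.9% and COL5A1 at 93.2% of the Ni_6W mean, COL1A2 at 163% and EGR1 at 129%. A p that misses the threshold does not show that levels were equal. For DUSP1, which had 46.4 and 46.2 CPM in Ni_6W and 99.9 and 85.3 CPM after wash-out, the unadjusted p of that difference was under 0.05. The pair Ni_6W replicate 2 and Ni_6W+2W replicate 2 was the closest of the 15 pairs among these 6 libraries (chi-square per degree of freedom 9.14, r = 0.994) and crosses the groups, whereas Ni_6W+2W replicate 1 was closest to Control_6W replicate 1 by correlation (r = 0.979).

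**Figure D4:**
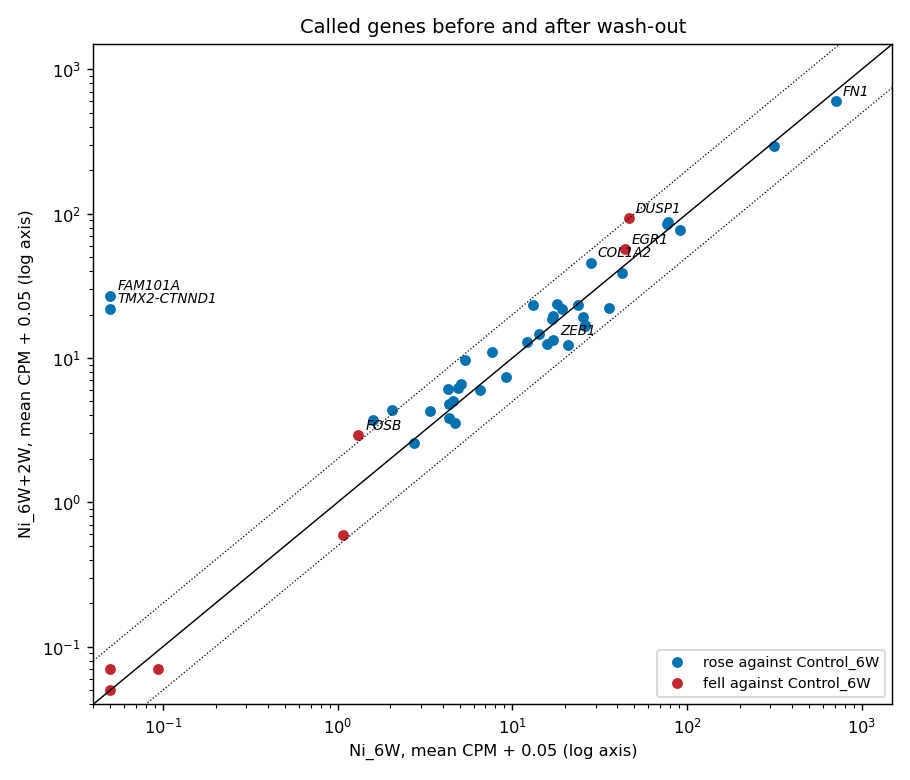
Mean CPM (0.05 added, log axes) of each called gene in Ni_6W (horizontal) and Ni_6W+2W (vertical), blue for the 39 rises and red for the 7 falls against Control_6W, with the line of equality and dotted lines at 50% and 200%. Of the 46 genes 38 lie between 50% and 200% of the Ni_6W mean, and FAM101A and TMX2-CTNND1 lie far above at 0 CPM in Ni_6W.

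The clones and the 3-day libraries, which share no sample with the comparison, show where else the pattern occurs. The genes were chosen by the comparison, so these counts are a description. In the clones between 33 and 42 of the 46 genes lay nearer to the washed cells than to Control_6W, and for 27 genes (24 rises and 3 falls) this held in all 6 clones. ZEB1, SNRPN, MARK1, COL5A1 and PDPN were among the 27. EGR1, FOSB and DUSP1 were not, and neither were FN1 and COL1A2, which missed in 1 clone each. In Ni_3D+14D, 45 and 45 genes lay nearer to the washed cells, and in Ni_3D 42 and 36. The unexposed Control_3D libraries gave 44, 43, 4 and 4 for replicates 1 to 4, so that the called set also separated unexposed libraries from each other. For 42 of the 46 both of replicates 1 and 2 lay nearer to the washed cells, and for 41 neither of replicates 3 and 4 did. Exposure and the state that sets these pairs of controls apart cannot be told apart with these libraries.

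**Figure D5:**
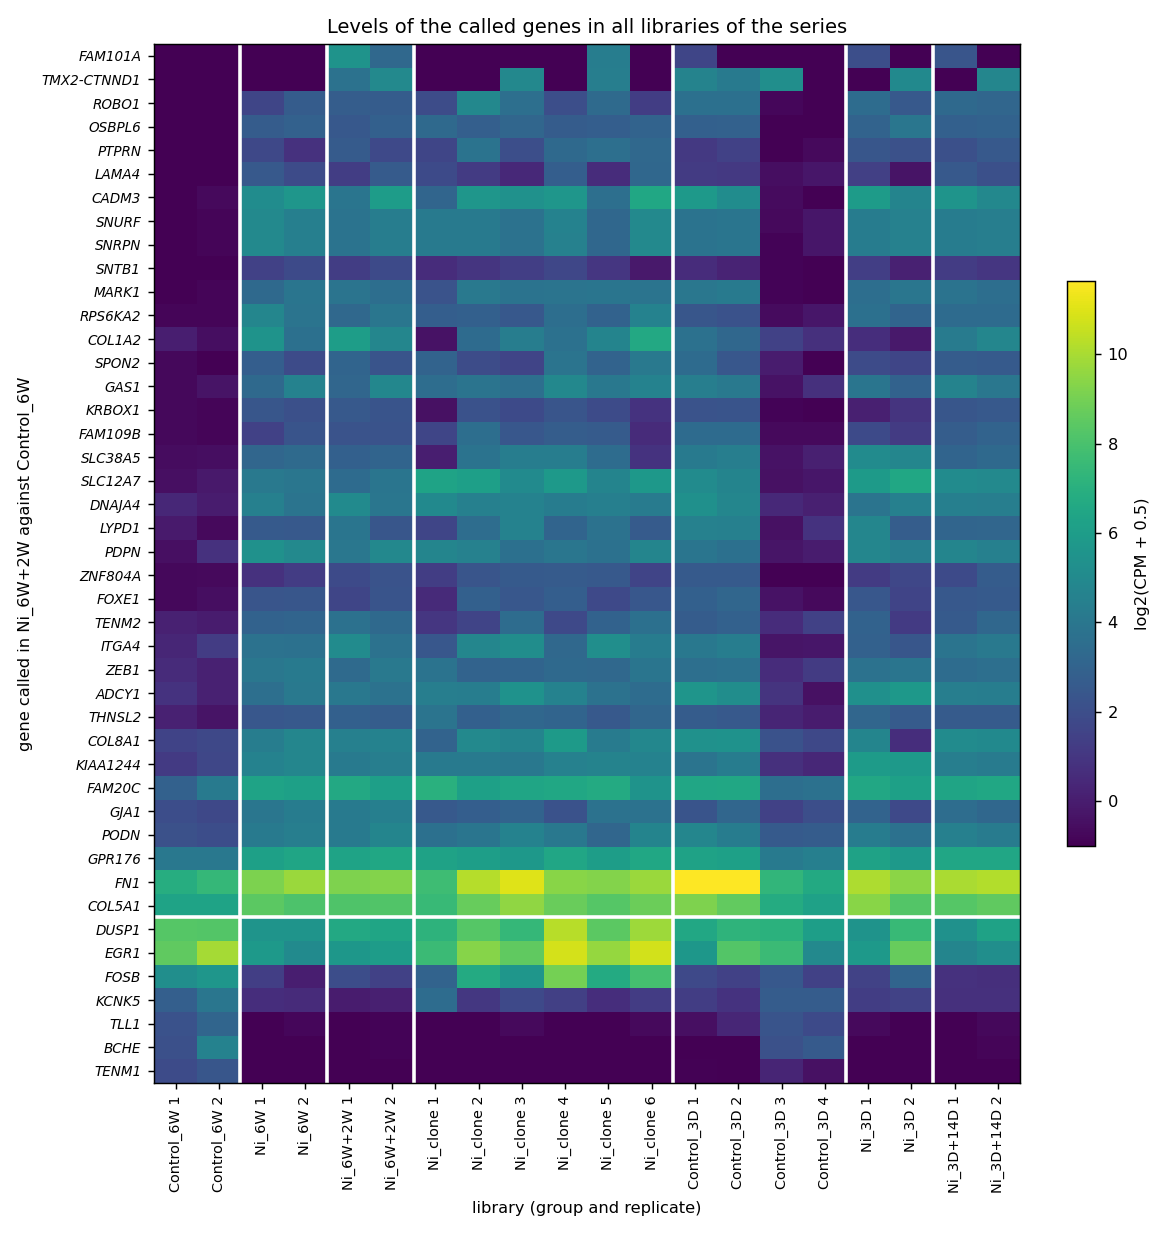
Colour gives log2(CPM + 0.5) of 44 of the 46 called genes (rows, 37 rises above the white line and 7 falls below it) in all 20 libraries (columns, by group and replicate, with white lines around groups). The columns of Control_6W and of Control_3D replicates 3 and 4 are dark for most rises, while Control_3D replicates 1 and 2, at 44 and 43 of 46 genes nearer to the washed cells, are as bright as the nickel columns for most of them.

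The authors' deposited table for this comparison gave 1752 genes with a deposited p under 0.05, of which 885 were higher and 867 lower in nickel. The deposited p is the column that the authors headed padj, and the signed score beside it is the one they headed pvalue. Here the p was read as the unadjusted 2-sided normal p of that score, a reading that does not follow from the headings. All 46 genes called here had a deposited p under 0.05 and the same direction in the authors' deposited table. That table describes the same 2 groups of libraries, so this is no separate support. ZEB1 had a mean of 0.124 RPKM in Control_6W and 2.01 RPKM in the washed cells there, with a log2 ratio of 2.70.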

How the data were processed

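RNA of 20 BEAS-2B libraries was sequenced from a TruSeq RNA kit, per the labels' protocols. For each library the authors deposited raw counts of reads per RefSeq gene (25411 genes) and, per the file headers, RPKM values. The table of this comparison, deposited by the authors, holds mean RPKM, a log2 ratio that is shrunken against the ratio of its RPKM columns, a signed test score and its p-value. There, 6931 genes with 0 RPKM in both groups carry a score of 1. The submitters' processing notes name STAR 2.4, DESeq, DESeq2, GRCh37 and hg19. Their roles, the way of counting and the strand are not given there.

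Libraries were grouped by title and joined by RefSeq identifier, since 28 symbols of genes in 2 libraries had been changed by a spreadsheet. Control_6W, Ni_6W and Ni_6W+2W (n = 2 each, 3 residual degrees of freedom) were fitted in edgeR 4.0.16 (R 4.3.3) with 1 mean per group: TMM, filterByExpr (minimum count 10, minimum total 15), robust quasi-likelihood F test and Benjamini-Hochberg adjustment, called at 0.05. The common coefficient of variation was 33.0%. The 3-day libraries were kept out of this fit, a choice made from an earlier analysis of these data. There, Control_3D fell into 2 unlike pairs, and 2 of the 3-day libraries were taken to hold transcripts of another line. How far such transcripts enter the 3-day levels given here was not tested. Levels are CPM after TMM over 20 libraries. A gene with no read in a group was set against a floor of 3 reads over that group, and one with 1 to 3 reads has an exact 95% binomial interval. Floors and intervals cover counting error only. Totals of the 4 libraries differed up to 1.93-fold.

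On simulated data (3 draws, at least 13951 genes fitted), 200 changed genes were drawn from those with a mean of at least 5 CPM over the 6 libraries. Of these, edgeR recovered 8.46% of 2-fold, 73.1% of 4-fold and 96.5% of 8-fold changes for this comparison and called 11 unchanged genes on average. DESeq2 1.42.0 recovered 22.9%, 87.1% and 98% and called 38.3. Recovery of genes at lower levels was not simulated. Changes near 2-fold are thus mostly not detectable at this depth and number of libraries.

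The members, the gene lists (39, and 1 of immediate early genes added after values were seen), tests and alternatives were chosen with earlier results of these data known. Genes named were 10 set ones (ZEB1, ZEB2, SNAI1, SNAI2, TWIST1, CDH1, CDH2, EPCAM, VIM, FN1), the 12 largest rises and falls among called genes with at least 5 CPM in 1 group, no overlap and a named symbol, and up to 4 called members per list. Further genes, including the other called ones and uncalled list members, were named after their values were seen. Alternatives were DESeq2, RLE size factors, other filters, other sets of libraries, a replicate term, no robust estimation and each library left out. Promoter windows are those of RefSeq on GRCh38.p14, matched by symbol or transcript. Of the 14168 tested genes 78.9% matched, and 10 of the 39 rises did not, so the share of rises with a motif is not reported. The values of 2 called rises are not reported here.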

Additional observations from a re-analysis of the deposited data

Results flagged for a closer look

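Single libraries far from the rest of their group were sought for the named genes in the 6 clones and in the 4 Control_3D libraries, the only groups large enough. Of 106 sets of values 11 held such a library. The rule was applied to CPM, which are skewed and in some sets mostly 0, so no chance rate is set beside this count. In the clones, replicate 6 was far above the others for COL1A2 (98.4 CPM, next 25.6), RPS6KA2 (23.5 CPM, next 11.2) and SNAI1 (15.9 CPM, next 7.10). Clone replicate 2 was highest for ROBO1 (29.5 CPM, next 11.6), replicate 5 was the only clone with FAM101A (20.1 CPM), and replicate 1 was highest for KCNK5 (10.7 CPM, next 2.97) and lowest for MARK1 (4.26 CPM, next 13.8). Among unexposed 3-day libraries, Control_3D replicate 1 had the highest CDH1 (11.4 CPM, next 0.426), EPCAM (5.97 CPM, next 2.34) and FAM101A (2.59 CPM, the others at 0), and replicate 4 the lowest ZEB2 (83.0 CPM, next 114). None of these libraries entered the test of washed against control cells.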

How the results depend on the processing

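The number of calls did not hold across the 16 alternatives. Changes of the 46 called genes kept their direction where they were fitted. These fits reuse the same libraries, which did not overlap in any of the 46, so a kept direction is no separate support. Against Control_6W there were 277 calls (194 rises, 83 falls, 24 lists with a call) with DESeq2, 537 (323, 214, 31) with no filter on low counts, 0 (0, 0, 0) in the fit of 14 libraries, 72 (58, 14, 8) with the clones added, and 79 (72, 7, 10) in a fit of 10 libraries without Control_3D and clones, which was chosen after the data were seen. RLE size factors, a filter of 1 CPM in 2 libraries, the fit of 4 libraries and no robust estimation gave 39 to 47. Leaving out 1 library gave 4 to 54 calls, 4 to 33 rises, 0 to 36 falls and 1 to 15 lists. Without Control_6W replicate 1 falls outnumbered rises (36 and 18). Against Ni_6W the counts were 2 with DESeq2, 103 with no filter and 0 to 2 on leaving out 1 library. The cause of these differences was not tested.

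With the replicate number as a block, 11 genes were called (11 rises, 0 falls, 2 lists), all 11 among the 46. ZEB1 was not one of the 11 (edgeR adjusted p 0.0631). Replicate numbers are not said to pair libraries: deviations of same-numbered libraries correlated at -0.03 (Control_6W with Ni_6W), 0.27 (Control_6W with Ni_6W+2W) and 0.18 (Ni_6W with Ni_6W+2W). With 2 libraries a group and this depth, changes near 2-fold were mostly not detectable.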
